A study of Homo sapiens with 3 samples.

Results

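The platelet-derived growth factor (PDGF) family in LX-2 cells was examined as 7 genes, chosen by name. They are the 4 ligand genes PDGFA, PDGFB, PDGFC and PDGFD, the 2 receptor genes PDGFRA and PDGFRB, and PDGFRL, which encodes a receptor-like protein. All 7 were found among the 26108 genes of the deposited table, with 1 row each. LX-2 is an established, immortalised human hepatic stellate cell line, and every library came from this line. The vehicle library came from cells without FGF19, and the other libraries came from cells given recombinant human FGF19 (rhFGF19) at 50 or 100 ng/mL. Each condition had 1 library, so every comparison was between single libraries, had no replicate check and carries no p-value. The doses follow the titles of the samples. The description fields of the same samples exchange the doses and give 72 and 73 h of stimulation, whereas the series design and the paper give 24 h. Sets of 3 values below are in the order vehicle, 50 and 100 ng/mL, and pairs of changes in the order 50 and 100 ng/mL, each against vehicle.

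PDGF is the main mitogen of hepatic stellate cells. The ligands are secreted as disulfide-linked dimers and signal through the receptor tyrosine kinases PDGFR-α and PDGFR-β, which pair and phosphorylate each other when a ligand binds. PDGF-A and PDGF-B are cut to their active form inside the cell by furin-like proteases, whereas PDGF-C and PDGF-D are secreted with a CUB domain that must be removed outside the cell. PDGFR-β appears on stellate cells as they become activated in an injured liver, and PDGF-B and PDGF-D are its best known ligands. PDGF-A and PDGF-C act mainly through PDGFR-α. PDGFRL resembles the extracellular part of these receptors and has no kinase domain.

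The ligand genes fall into 2 sequence types, which differ in base composition. The stretches below are 60 bases of coding sequence each, read from the GENCODE v29 transcripts on GRCh38, within a single coding exon and written 5′ to 3′ on the strand of the gene. They are shown because the changes described further on moved with the GC content of the transcripts. In the ligands, capitals mark the codons of a run shared by all of them in the growth factor domain (cysteine, any residue, glycine, any residue, cysteine). PDGFA lies on the minus strand of chromosome 7 (chr7:510818-510877), PDGFB on the minus strand of chromosome 22 (chr22:39231631-39231690), PDGFC on the minus strand of chromosome 4 (chr4:156767797-156767856) and PDGFD on the minus strand of chromosome 11 (chr11:103926936-103926995).
PDGFA: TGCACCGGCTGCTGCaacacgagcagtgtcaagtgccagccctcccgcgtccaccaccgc
PDGFB: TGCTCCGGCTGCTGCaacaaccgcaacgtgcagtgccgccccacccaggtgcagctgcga
PDGFC: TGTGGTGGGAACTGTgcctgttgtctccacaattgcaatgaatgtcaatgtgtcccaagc
PDGFD: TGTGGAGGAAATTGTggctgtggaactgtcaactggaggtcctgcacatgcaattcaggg

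PDGFA and PDGFB shared 42 of these 60 bases, and PDGFC and PDGFD shared 32. The stretch held 68.3% G or C in both PDGFA and PDGFB, against 48.3% in PDGFC and 51.7% in PDGFD. Over the whole coding sequence the GC content was 58.8% for PDGFA, 62.3% for PDGFB, 44.8% for PDGFC and 46.5% for PDGFD. For the receptors, the stretch begins with the glycine-rich loop of the kinase domain, in capitals. PDGFRA lies on the plus strand of chromosome 4 (chr4:54277399-54277458) and PDGFRB on the minus strand of chromosome 5 (chr5:150124761-150124820).
PDGFRA: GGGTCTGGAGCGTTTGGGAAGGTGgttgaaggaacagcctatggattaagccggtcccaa
PDGFRB: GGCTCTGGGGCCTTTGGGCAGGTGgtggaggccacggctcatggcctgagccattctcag

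The receptors likewise shared 42 of the 60 bases. The coding sequence of PDGFRB held 58.3% G or C and that of PDGFRA 47.4%.

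In the deposited values, PDGFRB was the more abundant receptor mRNA and PDGFC the most abundant ligand mRNA in every library. PDGFRB (ENSG00000113721, chromosome 5 from 150113839 to 150155860 in GRCh38) had 3.86, 5.78 and 5.25 FPKM. PDGFC (ENSG00000145431, chromosome 4 from 156760454 to 156971799) had 3.42, 9.31 and 8.93 FPKM. FPKM values are per transcript length, so that levels of different genes can be set side by side within a library, but they are not scaled for GC content. With the trend on GC content, described below, taken off the rhFGF19 values, PDGFB had the largest ligand share, at 40.7% and 36.6%. PDGFRB was the highest of the 7 in vehicle, and PDGFC was the highest in both rhFGF19 libraries, which was the only change in the order of the members.

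PDGFB and PDGFA followed at lower levels. PDGFB (ENSG00000100311, chromosome 22 from 39223359 to 39244982) encodes the B chain, the classical stellate cell mitogen, and had 2.15, 4.35 and 3.39 FPKM. PDGFA (ENSG00000197461, chromosome 7 from 497258 to 520208) had 1.23, 3.14 and 2.75 FPKM. PDGFRL (ENSG00000104213, chromosome 8 from 17576433 to 17644071) was listed at 0.64, 0.88 and 0.75 FPKM, just above the floor of 0.5 FPKM on the mean of the 3 libraries below which no change was computed. In each of these genes the vehicle library was the lowest and the 50 ng/mL library the highest. Without replicates, the spread that would separate neighbours in this order is not known.

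PDGFD and PDGFRA were close to 0 in all 3 libraries and did not pass that floor. PDGFD (ENSG00000170962, chromosome 11 from 103907189 to 104164379), a ligand of PDGFR-β, was listed at 0.09, 0.12 and 0.05 FPKM. PDGFRA (ENSG00000134853, chromosome 4 from 54229280 to 54281977) was listed at 0.01, 0.09 and 0.04 FPKM. These values are a few steps of the 0.01 to which the table is written, so no fold is given for them. By flow cytometry, the paper reports overexpression of PDGFR-α, its surface marker of inflammatory fibroblasts, in LX-2 cells conditioned with FGF19. That result is on protein, and how it relates to the PDGFRA mRNA level here was not tested. The annotation places another protein-coding gene, AC058822.1, over the whole of PDGFRA on the same strand. AC058822.1 was not among the genes of the table used here, and how reads shared by both genes were assigned was not tested. In vehicle 19.4% of all gene symbols were listed below PDGFRA, and 77.8% were listed below PDGFRB.

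**Figure D1:**
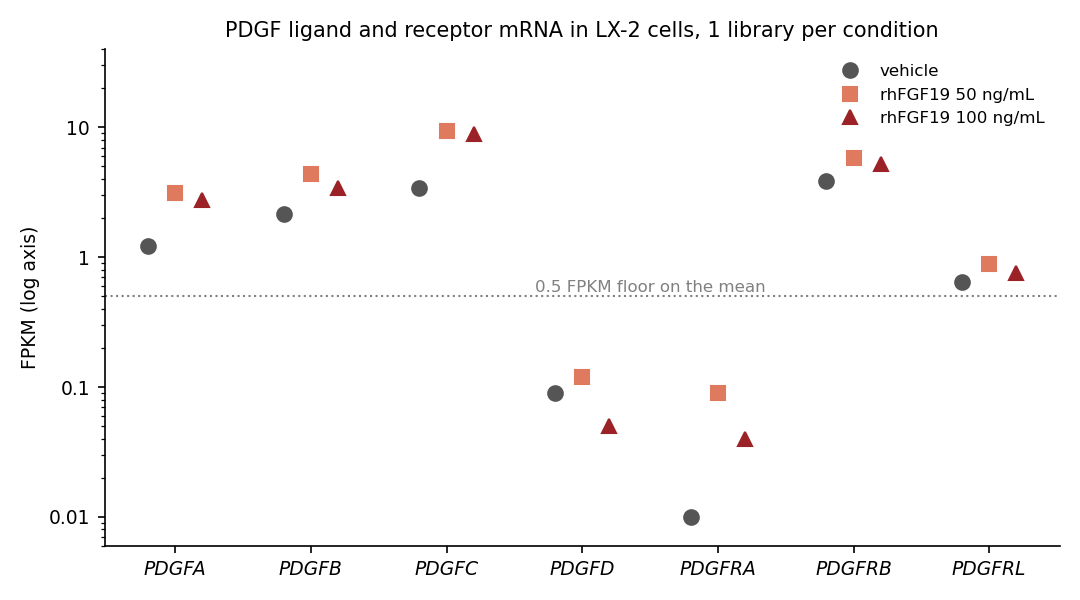
FPKM of the 7 PDGF genes (log axis) in the vehicle library and in the libraries at 50 and 100 ng/mL rhFGF19, 1 point per library and no error bar, since each condition had 1 library. PDGFC, PDGFRB, PDGFB and PDGFA lie between 1.23 and 9.31 FPKM, PDGFRL lies at 0.64 to 0.88, and PDGFD and PDGFRA lie at or below 0.12.

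The ligand mRNAs together summed to 6.89, 16.9 and 15.1 FPKM. PDGFC made up 49.6% of that sum without rhFGF19, and 55.02% and 59.1% with it. The share of PDGFB was 31.2%, 25.7% and 22.4%, and that of PDGFA stayed between 17.9% and 18.6%. PDGFD contributed 1.31% or less. The summed ligands were 1.78, 2.93 and 2.88 times the PDGFRB level of the same library. Ratios within a library do not depend on its total. The share of PDGFC also differed between the rhFGF19 libraries, by 4.04 percentage points. The direction of its difference from vehicle turned when the trend of all genes on GC content, described below, was taken off the rhFGF19 values, an alternative chosen after seeing the data. The share of PDGFC was then 27.8% and 31.6%, below the 49.6% of vehicle, and that of PDGFB 40.7% and 36.6%.

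The first comparison asked how the family's mRNA differed between rhFGF19-treated and vehicle-treated cells. PDGFA and PDGFC were past 2-fold higher than vehicle at both doses, PDGFB was just under 2-fold at 50 ng/mL, and PDGFRB and PDGFRL stayed well under it. Changes are differences of log2(FPKM + 0.1), a scale on which low genes change by less than their true fold. On it PDGFC was higher by 1.42 and 1.36. PDGFA was higher by 1.28 and 1.10. PDGFB was higher by 0.98 at 50 ng/mL, just outside the threshold of 1, and by 0.63 at 100 ng/mL. Each of the 3 ligands thus had its vehicle value below both rhFGF19 values.

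The receptor genes differed less. PDGFRB was higher by 0.57 and 0.43 on the log2 scale, which is 1.48-fold and 1.35-fold. PDGFRL was higher by 0.41 and 0.20. No member was past 2-fold lower in either comparison. In a bulk library, more cells that express a gene and more RNA per cell cannot be told apart.

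The 2 of 5 members past 2-fold higher have to be read against all genes, because 39.5% of the 12422 symbols tested were past 2-fold higher at 50 ng/mL and 38.6% at 100 ng/mL. Past 2-fold lower were 1.75% and 1.47%. The count of members was therefore near the background of the whole table. Their median changes were 0.98 and 0.63, beside 0.62 and 0.62 over all symbols tested. In FPKM, the 50 ng/mL library exceeded vehicle in all 7 members and the 100 ng/mL library in 6, all but PDGFD. The 5 members that passed the floor were above vehicle at both doses, as were 63.3% of symbols tested. With the GC trend, described below, removed, 4 of the 5 were above 0 at both doses, against 44.9% of symbols. Both comparisons used the same vehicle library, so that their values are not independent of each other. At 50 ng/mL, 79.4% of the symbols tested had a smaller change than PDGFC, 72.8% a smaller one than PDGFA, 59.9% than PDGFB, 48.7% than PDGFRB and 44.5% than PDGFRL.

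**Figure D2:**
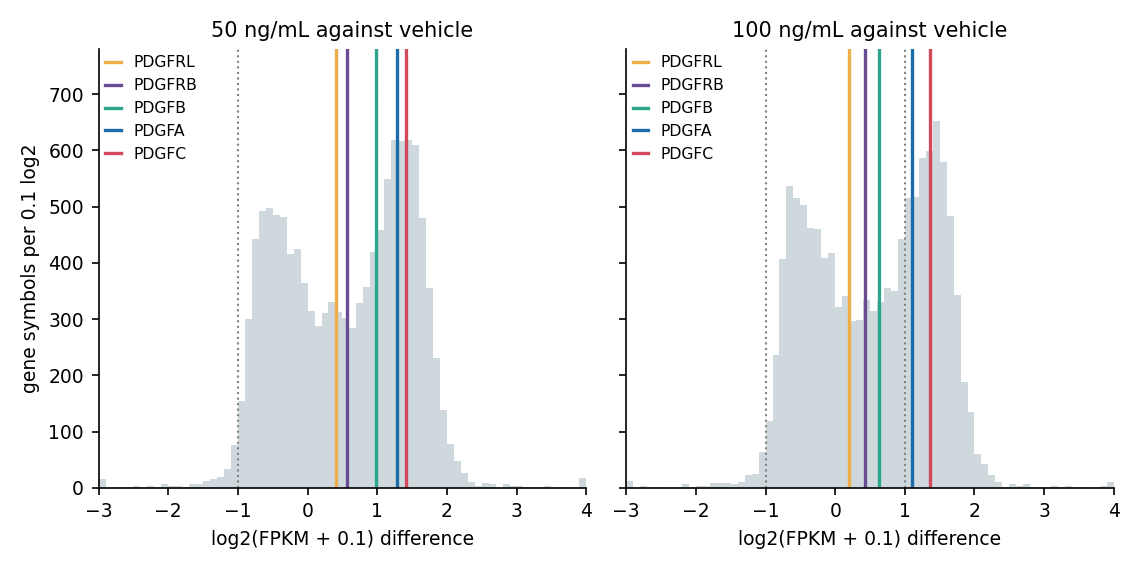
Differences of log2(FPKM + 0.1) between each rhFGF19 library and vehicle. Grey bars count the gene symbols tested per 0.1 on the log2 scale, with values beyond the axis added to the end bars, dotted lines mark 2-fold, and coloured lines mark the 5 PDGF genes that passed the floor, with PDGFC at 1.42 and 1.36 and PDGFRL at 0.41 and 0.20.

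The changes of all genes moved with the GC content of their transcripts, and the members were spread along that range. Among the 2324 symbols with 40 to 45% GC, 82.9% were past 2-fold higher at 50 ng/mL, with a median log2 change of 1.43. Among the 1721 symbols with 60 to 65% GC, 1.80% were, with a median of -0.48. PDGFC had a median transcript GC content of 44.8%, PDGFRL 52.2%, PDGFRB 57.7%, PDGFB 61.0% and PDGFA 63.4%. The largest change in the family was thus in the member with the lowest GC content among the 5 tested, and the next 2 in the members with the highest.

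Relative to the trend of all symbols on GC content, the order of the members turned over. The trend was 1.27 at the GC content of PDGFC, -0.47 at that of PDGFA, -0.38 at that of PDGFB and -0.16 at that of PDGFRB, at 50 ng/mL. After the trend was removed, PDGFC was 0.15 and 0.11 above genes of similar GC content, PDGFA 1.75 and 1.55, PDGFB 1.36 and 0.99, and PDGFRB 0.73 and 0.59. These values were ranked among those of all symbols, of any GC content, with the trend removed. Lower than PDGFC were 61.8% and 58.6% of symbols, and lower than PDGFA 99.5% and 99.2%. Lower than PDGFB were 98.6% and 96.6%, and lower than PDGFRB 92.3% and 88.9%. PDGFRL was at -0.068 and -0.26.

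With the GC trend removed, 2 members were past 2-fold higher at 50 ng/mL, PDGFA and PDGFB. Of these, 1 was also past it in the deposited values. At 100 ng/mL 1 was, PDGFA. Over all symbols 3.71% and 3.33% were past 2-fold higher by this measure, and 5.14% and 4.58% past 2-fold lower, where no member was. The value of PDGFA depends on which of its transcripts the cells made, since the 5 listed ones ran from 52.7% to 72.5% GC. With the GC content of the longest transcript of each gene, an alternative chosen after seeing the data, PDGFA was 0.97 and 0.79 above genes of similar GC content, under 2-fold, while PDGFB was 1.34 and 0.98 above and PDGFRB 0.75 and 0.60. The 3 listed transcripts of PDGFB differed little, from 60.6% to 61.9% GC. What gave the trend, the vehicle library or the treatment, cannot be told apart, because only 1 library lacked rhFGF19.

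**Figure D3:**
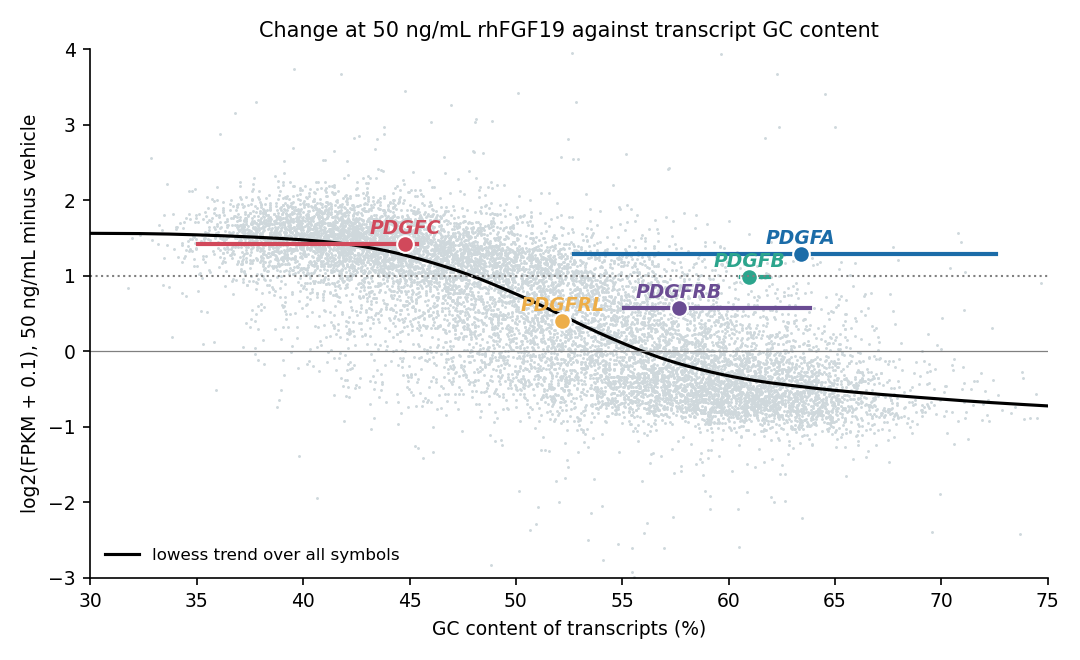
Change at 50 ng/mL rhFGF19 against vehicle (log2(FPKM + 0.1) difference) over the median GC content of each gene's transcripts in percent, with grey points for gene symbols, a black line for the trend over all of them and coloured points for the PDGF genes that passed the floor. Horizontal bars span the lowest to the highest GC content of a gene's listed transcripts, and symbols outside the axes are not drawn. PDGFC lies 0.15 above the line and PDGFA 1.75 above it.

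The second comparison was between the doses. Its sign rests on the doses of the titles and would turn with those of the description fields. By the titles, all 7 members were listed lower at 100 than at 50 ng/mL, and 5 of them passed the floor. Of all symbols tested, which passed it too, 49.7% were lower. The differences were small, at -0.35 for PDGFB, -0.21 for PDGFRL, -0.19 for PDGFA, -0.14 for PDGFRB and -0.059 for PDGFC on the log2 scale. The SD of this difference over all symbols tested was 0.32, and 5.10% of symbols had a lower value than PDGFB. No member was past 2-fold between the rhFGF19 libraries, against 1.64% of symbols. With the GC trend removed the 5 tested members were still lower at 100 ng/mL, as were 49.1% of symbols. For PDGFD the listed value went from 0.12 to 0.05 FPKM and for PDGFRA from 0.09 to 0.04 FPKM, both under the floor.

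The genes with the pair of changes nearest to each member were sought among symbols averaging 1 FPKM or more, over 2 comparisons that share the vehicle library. For PDGFA they were MSL2, SP100 and SCO1, none of which differed from it by more than 0.013 on the log2 scale in either comparison. For PDGFB they were TIMM23B, EEF1AKMT3 and TMSB15A, within 0.030. For PDGFC they were SEC31A, RSPRY1 and SON, within 0.0082. For PDGFRB they were KIAA0513, RHEBP1 and ZNF212, within 0.013, and for PDGFRL ARHGEF34P, PLEKHA4 and BRD3OS, within 0.032. Such likeness was common for some members and less so for others. Of 10484 symbols, 500 lay within 0.1 of PDGFC in both comparisons, 242 of PDGFA, 174 of PDGFRB and 30 of PDGFB, and of 10485 symbols 90 lay that near to PDGFRL.

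The genes that act with the family were described from 5 lists set by role, 95 genes in all, of which 94 were in the table and 79 passed the floor. Past 2-fold higher at both doses were 31 of the 79, or 39.2%, against 36.3% of all symbols, and past 2-fold lower at both doses was none, against 0.636%. After the GC trend was removed 4 of the 79 were past 2-fold higher at both doses, against 2.53% of all symbols, and none past 2-fold lower, against 3.47%. The count higher was 2 by the GC content of each gene's longest transcript.

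Genes for the release and binding of the ligands moved both ways. Of the 8 tested, 5 were above vehicle at both doses, against 63.3% of all symbols. None of the 8 was past 2-fold, whereas 36.3% of all symbols were past 2-fold higher at both doses. The list had a median transcript GC content of 55.4%. Among the 2289 symbols with 55 to 60% GC, only 5.90% and 4.85% were past 2-fold higher at 50 and 100 ng/mL. The median changes were 0.22 and 0.20. FURIN, the protease that matures PDGF-A and PDGF-B, was the lowest of the list, with 113, 75.95 and 76.2 FPKM and a change of -0.57 at each dose. NRP1, a co-receptor that can bind PDGF, was the highest, with 4.46, 8.23 and 8.75 FPKM and changes of 0.87 and 0.96. With the GC trend removed NRP1 turned to -0.41 and -0.30, FURIN was at -0.15 and -0.16, and the medians of the list were 0.18 and 0.18. None of the 8 was then past 2-fold higher at both doses, against 2.53% of all symbols. The plasminogen activators that remove the CUB domains are given for their role and were chosen after their values were seen. PLAT, which activates PDGF-C, had 25.4, 38.6 and 37.4 FPKM, and PLAU, which activates PDGF-D, had 115, 121 and 124 FPKM.

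Among the genes for signalling behind the receptors, 14 of 29 were past 2-fold higher at both doses, or 48.3%, against 36.3% of all symbols. None was past 2-fold lower at both doses, against 0.636%. The highest was CRK, an adaptor that links receptors to small GTPases, with 3.04, 9.61 and 10.6 FPKM and changes of 1.63 and 1.77. The lowest was HRAS, a GTPase of the mitogenic RAS pathway, with 72.0, 39.5 and 41.1 FPKM and changes of -0.86 and -0.81. The transcripts of CRK held 45.0% GC and those of HRAS 64.7%. With the GC trend removed none of the 29 was past 2-fold higher at both doses, against 2.53% of all symbols. CRK was then at 0.37 and 0.53 and HRAS at -0.36 and -0.31. By the GC content of each gene's longest transcript the count past 2-fold higher at both doses was 1.

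Genes that restrain the receptors had the largest share of the 5 lists, with 9 of 12 past 2-fold higher at both doses, or 75%. Of all symbols 36.3% were. None of the 12 was past 2-fold lower at both doses, against 0.636%. PTPN2, a tyrosine phosphatase that acts on growth factor receptors, was the highest, with 0.38, 1.64 and 1.26 FPKM and changes of 1.86 and 1.503. SLC9A3R1, which encodes the scaffold NHERF1 that binds the tail of PDGFR-β, was the lowest, with 77.5, 49.5 and 51.2 FPKM and changes of -0.65 and -0.60. The transcripts of this list had a median GC content of 47.2%. Among the 2277 symbols with 45 to 50% GC, 57.1% and 57.2% were past 2-fold higher at 50 and 100 ng/mL. These shares count each dose by itself, and so counted 10 and 9 of the 12 were past it. With the GC trend removed the median changes of the list were 0.17 and 0.044. By that measure 2 of the 12 were past 2-fold higher at both doses, against 2.53% of all symbols. The 2 genes were SH2B3, an adaptor that dampens receptor signalling, at 1.08 and 1.08, and SPRY4, an inhibitor of RAS signalling, at 1.19 and 1.09. Both were named after their values were seen. By the GC content of each gene's longest transcript, the alternative chosen after seeing the data, the count was 1 instead of 2.

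The relatives of the family were the ligands and receptors of the VEGF and class III receptor groups, of which 10 were tested. Past 2-fold higher at both doses were 3 of them, or 30%, against 36.3% of all symbols. KITLG, the KIT ligand, was the highest, with 0.44, 1.64 and 1.69 FPKM and changes of 1.69 and 1.73. PGF, the placental growth factor, was the lowest, with 5.07, 2.49 and 3.01 FPKM and changes of -0.997 and -0.73. The medians of the list were -0.12 and -0.14, beside 0.98 and 0.63 for the PDGF genes and 0.62 and 0.62 over all symbols tested. With the GC trend removed the medians of the relatives turned to 0.16 and 0.020, beside 0.73 and 0.59 for the PDGF genes. None of the 10 was then past 2-fold higher at both doses, against 2.53% of all symbols. KITLG was at 0.17 and 0.22 and PGF at -0.53 and -0.29.

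PDGF and other mitogens switch on early response genes within hours. Of 20 such genes tested, 5 were past 2-fold higher at both doses, or 25%, against 36.3% of all symbols. KLF6, a zinc finger factor, was the highest, with 1.76, 5.41 and 4.94 FPKM and changes of 1.57 and 1.44. FOSL1, a subunit of AP-1, was the lowest, with 446, 344 and 345 FPKM and -0.37 at each dose. With the GC trend removed, 2 of the 20 were past 2-fold higher at both doses, against 2.53% of all symbols. These were KLF6 at 1.29 and 1.17 and CCND1, which encodes cyclin D1, at 1.39 and 1.41. By the GC content of each gene's longest transcript, the alternative chosen after seeing the data, the count was 0. CCND1 was named after its values were seen and was at 0.91 and 0.94 in the deposited values, from 55.2 FPKM in vehicle to 104 and 106.

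**Figure D4:**
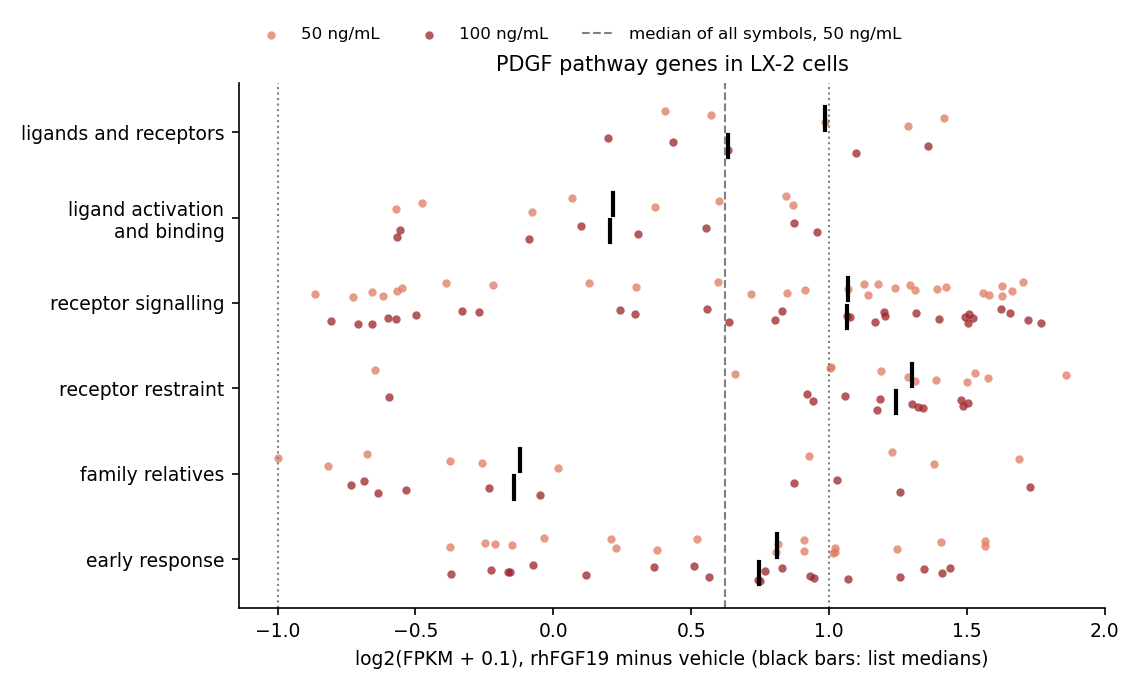
Changes of the tested genes of the PDGF family and of the 5 lists of genes that act with it, as differences of log2(FPKM + 0.1) between each rhFGF19 library and vehicle. Each point is 1 gene, black bars are list medians, dotted lines mark 2-fold and the dashed line is the median of all symbols at 50 ng/mL, 0.62. The genes that restrain the receptors have medians of 1.299 and 1.24 and the relatives -0.12 and -0.14.

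The cell identity of the libraries was checked with marker lists. Of 19 stellate and fibroblast markers in the table, 10 were at 1 FPKM or more in each library, led by VIM at 439 to 654 FPKM, whereas DES, LRAT, LUM and HGF were at 0.08 FPKM or less. None of the 6 endothelial markers in the table reached 1 FPKM. Of the platelet and megakaryocyte markers, a lineage rich in stored PDGF, 4 were in the table and summed to 1.58 to 1.66 FPKM. The hepatocyte list summed to 11.4 to 12.6 FPKM, the leukocyte list to 52.0, 47.0 and 42.4 FPKM, mostly CD68, and the epithelial list to 510.3, 312 and 307 FPKM, mostly KRT18. Their part in the changes of the PDGF genes was not tested. All genes summed to 302243, 276690 and 281606 FPKM.

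The changes of the members were recomputed under other settings. Over both doses and the settings that could move a single gene, PDGFA was above 0 in all 18 values, from 0.22 to 1.79. PDGFB was above 0 in 17 of 18, PDGFC in 17 of 18, PDGFRB in 16 of 18 and PDGFRL in 9 of 18. Where a trend was removed, a value above 0 means above genes of similar GC content or length, and not above vehicle. The settings reuse the same 3 libraries.

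**Figure D5:**
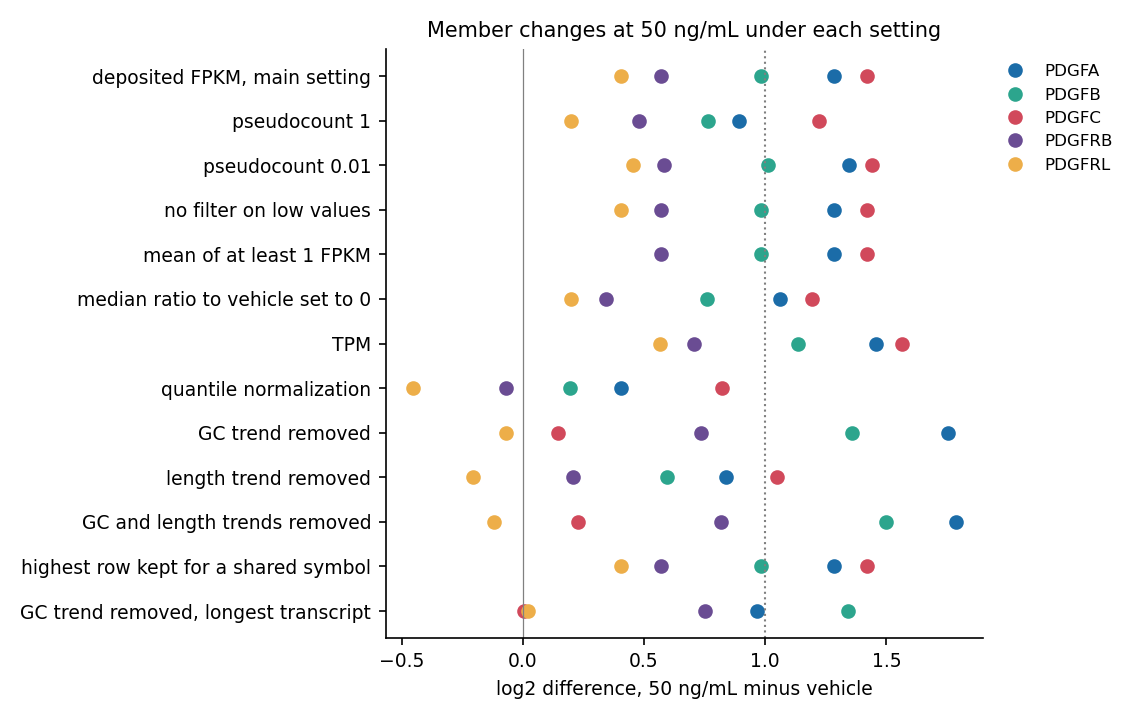
Change of the 5 tested PDGF genes at 50 ng/mL rhFGF19 against vehicle on the log2 scale, with the deposited FPKM in the top row and 1 alternative setting in each row below it, and 1 point per gene. The dotted line marks 2-fold, and PDGFRL has no value with the floor at 1 FPKM. The rows on filters and shared symbols repeat the deposited values, since they cannot move a single member. PDGFC falls from 1.42 to 0.15 with the GC trend removed, while PDGFA goes from 1.28 to 1.75.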

How the data were processed

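Poly(A) mRNA of LX-2 cells was sequenced as paired ends on an Illumina HiSeq instrument, 1 library for each condition. The extraction protocol in the labels speaks of RNA of an adipose type, although every label of the samples gives LX-2 cells. The authors deposited FPKM values (fragments scaled by transcript length and by library total) for each gene, written to 2 decimals. The submitters' processing notes list HISAT2 2.0, StringTie 1.3.0 and Bowtie 0.12.2 and the builds hg19 and mm8 without their roles, whereas the deposited coordinates overlapped the GRCh38 positions of GENCODE v29 for 99.98% of the 25531 identifiers found there. Whole reads could not be recovered from FPKM, so depth is unknown and no interval is given.

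Rows sharing a gene symbol were summed. Differences of log2(FPKM + 0.1) between single libraries were computed for symbols averaging 0.5 FPKM or more over the libraries, and a symbol was called past 2-fold at an absolute difference above 1, the criterion of the study's methods. With no replicates, no p-value was computed. GC content and length were medians over the listed transcripts. Trends on GC content or length were fitted by lowess (span 0.3) and subtracted. Besides the 7 PDGF genes, the genes named were, in each of 5 lists, those with the highest and the lowest mean change among genes of at least 1 FPKM, and the 3 symbols nearest to each member. The members and lists were chosen with earlier results of these data known. A move between settings was judged by the spread between both rhFGF19 libraries, chosen after seeing the data, as were 3 alternatives beside the 13 planned. Python 3.11.15, NumPy 2.4.6, pandas 2.3.3, statsmodels 0.14.6 and Biopython 1.88 were used, and the procedure was tested on simulated data.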

Additional observations from a re-analysis of the deposited data

How the results depend on the processing

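Of 90 values of single members under alternatives that could move them, 46 moved by less than the SD of 0.32 between the rhFGF19 libraries, 31 by more, and 13 changed direction. The number of members past 2-fold higher, 2 at each dose, was 1 and 1 with a pseudocount of 1, 0 and 0 after quantile normalization, 1 and 0 less the length trend, 1 and 0 less the GC trend of the longest transcript, and 0 and 0 at a threshold of 2 on the log2 scale. At 50 ng/mL it was 3 as TPM and 3 with a pseudocount of 0.01, where PDGFB passed. At 100 ng/mL it was 1 with the median change centred on 0 and 1 less the GC trend. The 31 pathway genes higher at both doses became 16 with a pseudocount of 1, 8 with quantile normalization, 4 with the GC, the length or both trends removed, 2 by the longest transcript and 0 at the threshold of 2. None was lower at both doses in the deposited values, but 1 was with the median change centred, 2 after quantile normalization, 7 less the length trend, 1 less both trends and 1 by the longest transcript. The share of all symbols higher at both doses is given only for the deposited values, 36.3%, and less the GC trend, 2.53%. Under the other settings the counts of members and pathway genes have no such share and cannot be set against all genes. The median member change was 0.20 and -0.16 after quantile normalization and 0.60 and 0.23 less the length trend. Quantile normalization turned PDGFB to -0.16 at 100 ng/mL, PDGFRB to -0.068 and -0.19, and PDGFRL to -0.45 and -0.65. PDGFRL was also turned by removal of the GC trend (-0.068 and -0.26), the length trend (-0.21 and -0.40), both trends (-0.12 and -0.31) and, at 100 ng/mL, the GC trend by the longest transcript (-0.18), which turned PDGFC to -0.041. These alternatives centre the changes on genes of similar rank, GC content or length. The cause was not tested otherwise. The share of PDGFC among the ligands became 27.8% and 31.6% less the GC trend and 30.003% and 34.1% by the longest transcript. Unknown depth limits the values near 0, those of PDGFD and PDGFRA.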

Other observations

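Since PDGF is known as a mitogen, 10 proliferation genes were read beside the family. At both doses 8 of the 10 were past 2-fold higher than vehicle, with median log2 changes of 1.35 and 1.35, beside 36.3% of all symbols tested and medians of 0.62 and 0.62 over them. TOP2A, the DNA topoisomerase of dividing cells, had 7.44, 24.85 and 24.5 FPKM in vehicle and at the lower and higher dose. MCM2 and MCM5, subunits of the replicative helicase, were instead lower, at -0.28 and -0.36 for MCM2 and -0.37 and -0.41 for MCM5. With the trend on transcript GC content removed, none of the 10 was past 2-fold higher at both doses, against 2.53% of all symbols, and the medians were 0.091 and 0.070.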
